A study of Mus musculus with 4 samples.

Results

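31 genes of fatty acid oxidation and ketone body metabolism were followed in the liver of diet-induced obese mice given galanin-like peptide (GALP), a hypothalamic peptide that acts on feeding and body weight. The genes were listed by name, by their known place in the pathway, with earlier results of these data known. They comprised 2 acyl-CoA synthetases, 6 genes of the carnitine system, 15 genes of mitochondrial beta-oxidation, 6 genes of peroxisomal oxidation and 2 genes of ketone body metabolism. 29 of the 31 had a value on all 4 arrays, among 26194 gene names with such a value and 11319 with signal, that is, with a probe well above background in at least 1 of the 2 channels of every array.

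The mice were male C57BL/6, bought at 8 weeks of age (the labels also write C57BL/6J), brought to 40 g or more by 14 weeks of high-fat feeding and kept on that diet throughout. Porcine GALP(1-60), 1 nmol in 2 µL of saline with 5% alpha-cyclodextrin, was given into the nose once daily for 11 days, and control mice received saline. Liver RNA of the treated mice was pooled into a pool with greater weight loss and a pool with less weight loss, of 4 mice each, and each pool was hybridised against a control pool of 8 mice in both dye orientations, giving 4 two-colour arrays on 1 slide. The labels name a weight loss group for the control channel as well, whereas the methods describe 1 control pool.

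Long-chain fatty acids are activated to acyl-CoA, passed to carnitine, carried across the inner mitochondrial membrane and handed back to CoA. In the matrix they are shortened in a repeated cycle of dehydrogenation, hydration, renewed dehydrogenation and thiolysis, while peroxisomes shorten very long and branched chains. The liver turns the acetyl-CoA into ketone bodies in fasting, and many genes of these steps are known targets of the nuclear receptor PPARα.

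The 29 genes lay close to the control in both GALP pools. All values below are log2 ratios of GALP over control, so that 0 is no difference, and the 4 values of a gene are given in the order greater weight loss with GALP in Cy5, the same pool with GALP in Cy3, less weight loss with GALP in Cy5 and the same pool with GALP in Cy3. A pool value is the mean of its 2 arrays, and a mean ± SD is over the 2 pools (n = 2). The 116 single values ran from -0.46 (Crot) to 0.50 (Slc22a5 and Pex11a). The pool mean was under 0.1 in size for 19 of the 29 genes, and the median size was 0.0634 against 0.098 over all genes with signal and 0.0775 over the 6040 genes at least as bright as the dimmest of the 29. All 29 were well above background in all 8 channels.

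No gene of the 29 passed the threshold taken from the study's methods, which was read as a ratio above 1.5-fold or below 0.75-fold in each pool, with a scanner p-value under 0.01 and the same direction on all 4 arrays. 0 of 29 passed as higher, where 0.177% of the 11319 genes with signal did, and 0 of 29 passed as lower, where 0.345% did. The brightest probe of each gene had no scanner p-value (the median over repeated spots) under 0.01 on any array. The limma test of the 2 pool ratios against 0 gave 0 members at an adjusted p under 0.05, as it gave 0 of all 41037 probes (0.0%), and the smallest adjusted p of a member was 0.374. At an unadjusted p under 0.05 limma marked 4 of the 29 (13.8%), Abcd3, Acads, Acsl1 and Etfa, beside 11.6% of all probes, many of which had no signal. Those 4 had pool means of -0.10 to 0.14 in nearly equal pools, and each had arrays on both sides of 0. Fitted only on probes with signal, limma marked another 4 of the 29, Cpt1a, Crot, Pex11a and Slc22a5 (13.8%, beside 21.7% of those probes). In bulk liver, fewer cells of a type and less RNA per cell cannot be told apart.

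**Figure D1:**
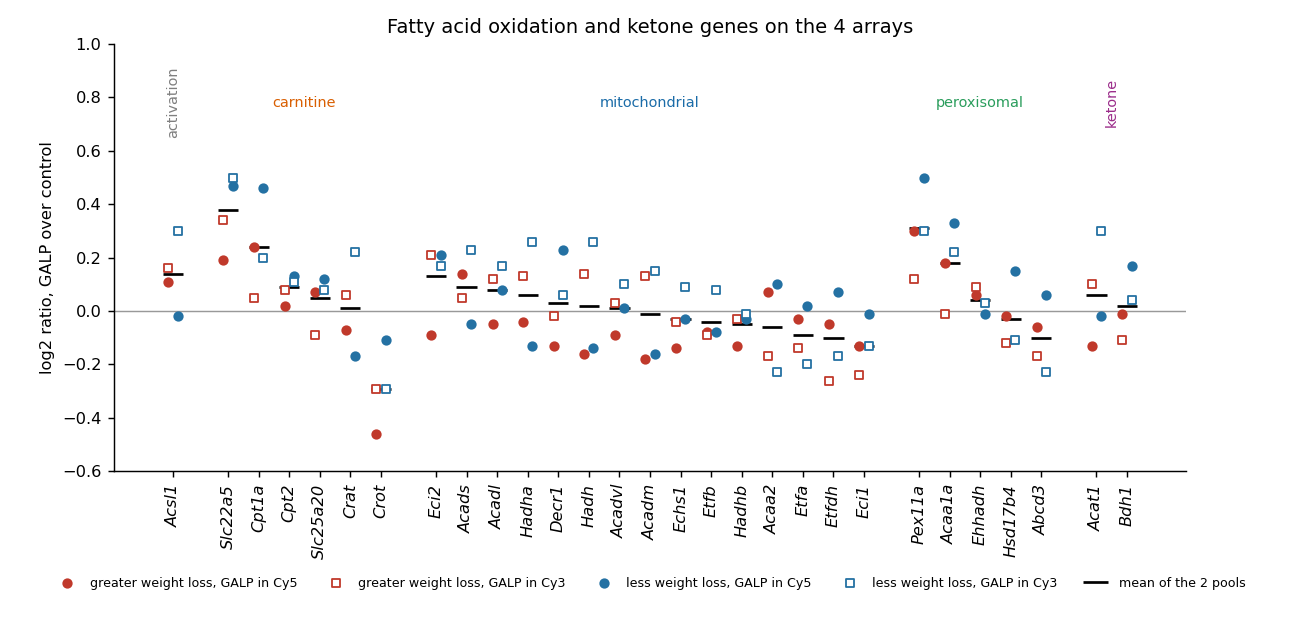
The log2 ratio of GALP over control (vertical axis) is plotted for 29 genes in 5 steps of fatty acid oxidation and ketone metabolism, with red for the pool with greater weight loss, blue for the pool with less, filled circles for GALP in Cy5, open squares for GALP in Cy3 and a black bar for the mean of the 2 pools. All points lie between -0.46 and 0.50, and most genes have points on both sides of 0.

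Activation to acyl-CoA was measured by Acsl1, a long-chain acyl-CoA synthetase and the main one of liver. Acsl1 (probe at chr8:47619774-47619833, mm9) gave 0.11, 0.16, -0.02 and 0.30. It was above 0 on 3 arrays and just below on the other. The pools were alike at 0.13 and 0.14, with a limma interval of 0.09 to 0.19 (adjusted p = 0.374). Acsl5, a related synthetase, had no usable value, since 3 of its 4 spots carried an outlier mark. Its marked spots read -0.12, -0.21 and -0.29 and its unmarked spot, on the array of the pool with less weight loss with GALP in Cy3, read -0.11.

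The carnitine system held the widest range of values. Slc22a5, the plasma membrane carnitine transporter OCTN2, had the highest mean of all 29 genes. Its probe (chr11:53678550-53678609, mm9) gave 0.19, 0.34, 0.47 and 0.50, a mean of 0.38 ± 0.15 or 1.3-fold. All 4 arrays were above 0, and both arrays of the pool with less weight loss were above both of the other pool. The limma interval ran from -0.19 to 0.94 (adjusted p = 0.512), and the scanner p-values were 0.347, 0.1, 0.0243 and 0.0182. A second, dimmer probe of Slc22a5 gave 0.76, -0.06, 1.14 and 0.62, with GALP channel intensities of 47.2 to 118 against 640 to 1087 over all channels of the first probe, and it was well above background in 3 of the 4 control channels.

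Cpt1a, the carnitine palmitoyltransferase of the outer mitochondrial membrane and the regulated entry step of the pathway, gave 0.24, 0.05, 0.46 and 0.20 (chr19:3385374-3385433, mm9). All 4 arrays were above 0 and the ranges of the pools overlapped. The mean was 0.24 ± 0.13 with an interval of -0.25 to 0.72 (adjusted p = 0.586). This probe is spotted repeatedly, and the 8 to 10 usable spots of an array had SDs of 0.04 to 0.06, so that the gap between 0.05 and 0.24 on the 2 arrays of the same extracts exceeded the spread between spots. A second probe of Cpt1a gave 0.20, 0.05, -0.02 and 0.43, a mean of 0.17 ± 0.06, with the third array just below 0.

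Crot, the peroxisomal carnitine octanoyltransferase that passes shortened chains on to mitochondria, had the lowest mean. It gave -0.46, -0.29, -0.11 and -0.29 (chr5:8966430-8966489, mm9), below 0 on every array, with a mean of -0.29 ± 0.12 and an interval of -0.74 to 0.16 (adjusted p = 0.523). A second probe of the gene gave -0.33, -0.32, -0.35 and -0.31. Its 4 arrays lay closer together than those of the first probe, with a limma interval of -0.38 to -0.28 (unadjusted p = 0.00331, adjusted p = 0.374).

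Cpt2, which returns the acyl group to CoA inside the mitochondrion, gave 0.02, 0.08, 0.13 and 0.11, above 0 on all 4 arrays with a mean of 0.09 ± 0.05. The carnitine-acylcarnitine translocase Slc25a20 had a mean of 0.05 ± 0.07, and the carnitine acetyltransferase Crat had 0.01 ± 0.02. Both had arrays on either side of 0. Over the 6 carnitine genes the median was 0.02 for greater and 0.11 for less weight loss, beside -0.01 and -0.02 over all genes with signal.

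The sequences upstream of the genes at the ends of this range are shown because these genes carry the largest values of the pathway. Each is the 250 bases before the RefSeq start in GRCm38.p6, read 5′ to 3′ along the gene, and capitals mark GGGCGG (a GC box) and AGGTCA (the core letters of a nuclear receptor site) on either strand. The windows are chr11:53891704-53891953 (minus strand) for Slc22a5, chr19:3323051-3323300 (plus strand) for Cpt1a, chr7:79743132-79743381 (minus strand) for Pex11a, a peroxisome gene described further on, and chr5:8997147-8997396 (minus strand) for Crot.
Slc22a5: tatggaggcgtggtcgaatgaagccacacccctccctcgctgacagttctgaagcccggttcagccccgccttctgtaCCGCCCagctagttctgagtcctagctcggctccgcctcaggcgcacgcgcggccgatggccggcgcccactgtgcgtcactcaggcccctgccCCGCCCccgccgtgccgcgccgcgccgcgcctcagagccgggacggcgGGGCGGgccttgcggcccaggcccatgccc
Cpt1a: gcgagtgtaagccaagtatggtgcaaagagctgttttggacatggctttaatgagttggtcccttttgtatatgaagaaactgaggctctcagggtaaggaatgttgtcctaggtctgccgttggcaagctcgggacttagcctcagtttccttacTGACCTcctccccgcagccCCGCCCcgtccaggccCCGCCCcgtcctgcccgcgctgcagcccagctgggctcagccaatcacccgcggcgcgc
Pex11a: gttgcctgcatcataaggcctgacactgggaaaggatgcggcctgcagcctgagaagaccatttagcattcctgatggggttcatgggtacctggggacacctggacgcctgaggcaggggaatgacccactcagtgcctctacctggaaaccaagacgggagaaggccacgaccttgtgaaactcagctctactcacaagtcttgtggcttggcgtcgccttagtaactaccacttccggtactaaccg
Crot: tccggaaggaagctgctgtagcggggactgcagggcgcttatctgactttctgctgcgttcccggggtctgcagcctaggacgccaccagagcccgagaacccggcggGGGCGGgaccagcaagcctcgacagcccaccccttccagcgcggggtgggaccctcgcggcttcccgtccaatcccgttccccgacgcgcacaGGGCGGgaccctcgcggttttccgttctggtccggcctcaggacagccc
The Slc22a5 window held 3 GC boxes in 73.6% G and C, the Cpt1a window 2 GC boxes and 1 AGGTCA, and the Crot window 2 GC boxes. The Pex11a window held neither sequence. GGGCGG was in 16 of the 29 windows found for 26 of the 31 genes (55.2%), beside 32.7% of all 32851 windows of that length. AGGTCA was in 4 (13.8%), upstream of Acadm, Acadvl, Cpt1a and Echs1, beside 14.0% of all windows. Both of these were chosen after the values had been seen and the windows had been searched for 4 others, so their shares are not a test. Of those, 2 copies of AGGTCA with 1 base between them were in 0 of the 29 windows and 0.0335% of all, the looser form AGGNCA in 0 and 0.338%, CACGTG in 0 and 6.02%, and TATAAA in 0 and 12.4%. These letters were searched only in the 250 bases, and a match is a description.

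The 15 mitochondrial genes all lay near 0. Their median was -0.01 (-0.05 for greater and 0.03 for less weight loss), and their means ran from -0.13 (Eci1) to 0.13 (Eci2). The acyl-CoA dehydrogenases, which open each cycle for chains of different length, had means of 0.01 ± 0.06 (Acadvl, very long), 0.08 ± 0.06 (Acadl, long), -0.01 ± 0.01 (Acadm, medium) and 0.09 ± 0.01 (Acads, short). None of the 4 had arrays on only 1 side of 0. Acadm gave -0.18, 0.13, -0.16 and 0.15, so that its sign followed the dye that carried the GALP extract in both pools.

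Hadha and Hadhb code for the alpha and beta subunits of the trifunctional protein, which carries out the later reactions of the cycle on long chains. Hadha had a mean of 0.06 ± 0.02 with arrays on both sides of 0. Hadhb gave -0.13, -0.03, -0.03 and -0.01, below 0 on all 4 arrays with a mean of -0.05 ± 0.04, and its direction turned to 0.03 after normexp background correction and loess. The subunit genes are divergent neighbours, with RefSeq starts 272 bases apart on chromosome 5 at 30154980 (Hadha) and 30155253 (Hadhb) in GRCm38.p6. The 250 of these bases next to Hadhb, chr5:30155003-30155252 on the plus strand, are shown as the stretch that lies upstream of both genes, with GGGCGG in capitals.
Hadhb: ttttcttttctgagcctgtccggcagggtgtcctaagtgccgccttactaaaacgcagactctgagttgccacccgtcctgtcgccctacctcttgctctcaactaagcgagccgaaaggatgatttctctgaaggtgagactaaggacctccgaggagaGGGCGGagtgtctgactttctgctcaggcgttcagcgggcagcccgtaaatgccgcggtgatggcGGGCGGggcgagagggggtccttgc
This stretch held 2 GC boxes.

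Of the other matrix enzymes, Hadh, the dehydrogenase of medium and short chains, gave -0.16, 0.14, -0.14 and 0.26, with a mean of 0.02 ± 0.05 and the dye pattern of Acadm. The hydratase Echs1 had -0.03 ± 0.09, and the thiolase Acaa2 had -0.06 ± 0.01. Acaa2 read 0.07 and 0.10 with GALP in Cy5 and -0.17 and -0.23 with GALP in Cy3, and its 8 to 10 usable spots on an array had SDs of 0.04 to 0.07.

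The isomerases and the reductase prepare unsaturated chains for the cycle. The isomerase Eci1 gave -0.13, -0.24, -0.01 and -0.13, the lowest mean of the step at -0.13 ± 0.08, with all 4 arrays below 0. Eci2, a second isomerase, gave -0.09, 0.21, 0.21 and 0.17, the highest at 0.13 ± 0.09, with 3 arrays above 0. It was counted with the mitochondrial genes by the list, and where its protein lies was not examined. The dienoyl-CoA reductase Decr1 gave -0.13, -0.02, 0.23 and 0.06. Both arrays of greater weight loss were below 0 and both of less were above, but a second probe of Decr1 gave -0.04, 0.18, -0.02 and -0.06, with pools of 0.07 and -0.04 in the opposite order.

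Electrons from the dehydrogenases leave through the electron transfer flavoprotein, of subunits Etfa and Etfb, and its oxidoreductase Etfdh. These had means of -0.09 ± 0.00, -0.04 ± 0.06 and -0.10 ± 0.07. Each had at least 1 array above 0.

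The peroxisomal step had a median of 0.04 over 5 genes, 0.08 where weight loss was greater and 0.02 where it was less. Pex11a, a membrane protein of peroxisome division, gave 0.30, 0.12, 0.50 and 0.30 (chr7:86882223-86882282, mm9), above 0 on all 4 arrays. Its mean was 0.31 ± 0.13, the highest of the step, with an interval of -0.18 to 0.79 (adjusted p = 0.525). The 8 or more usable spots of an array had SDs of 0.04 to 0.10, and 3 of those at 0.50 had a scanner p-value under 0.01.

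Acaa1a, a peroxisomal thiolase, gave 0.18, -0.01, 0.33 and 0.22, with a mean of 0.18 ± 0.13. Further probes of the gene gave -0.09 ± 0.10 and 0.12 ± 0.03, so its probes did not share a sign. Its near-identical copy Acaa1b, 183934 bases away on chromosome 9, had an outlier mark on 1 array and read -0.05, -0.15 and -0.18 on the others and -0.19 at the marked spot. Values of these copies are uncertain, since a probe may bind the RNA of both.

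Abcd3, an importer of fatty acids of the peroxisomal membrane, gave -0.06, -0.17, 0.06 and -0.23, the lowest mean of the step at -0.10 ± 0.02, with 3 arrays below 0. Dimmer probes of Abcd3 with signal gave -0.17 ± 0.01, below 0 on all 4 arrays, and -0.12 ± 0.04, with arrays on both sides of 0. The bifunctional enzymes of the peroxisomal cycle, Ehhadh and Hsd17b4, had means of 0.04 ± 0.05 and -0.03 ± 0.06.

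Ketone body metabolism was measured by Acat1, the mitochondrial acetoacetyl-CoA thiolase, and Bdh1, the 3-hydroxybutyrate dehydrogenase. Acat1 gave -0.13, 0.10, -0.02 and 0.30, a mean of 0.06 ± 0.11 with arrays on both sides of 0. Bdh1 gave -0.01, -0.11, 0.17 and 0.04, a mean of 0.02 ± 0.12. Both arrays of greater weight loss were below 0 and both of less were above, and a second, dimmer probe gave -0.08 ± 0.06.

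The intervals of limma bound what these arrays leave possible. The 95% interval of the brightest probe lay wholly between the fold limits of 0.75 and 1.5 (-0.42 and 0.58 on the log2 scale) for 21 of the 29 genes. It passed a limit for Cpt1a, Slc22a5, Crot, Eci1, Decr1, Acaa1a, Pex11a and Bdh1. Interval widths ran from 0.10 to 1.13 with a median of 0.46. They rest on the spread of 2 pools and, with the single control pool that the methods describe, leave out how the control pool differs from other control mice, and a narrow interval means only that the pools were alike.

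**Figure D2:**
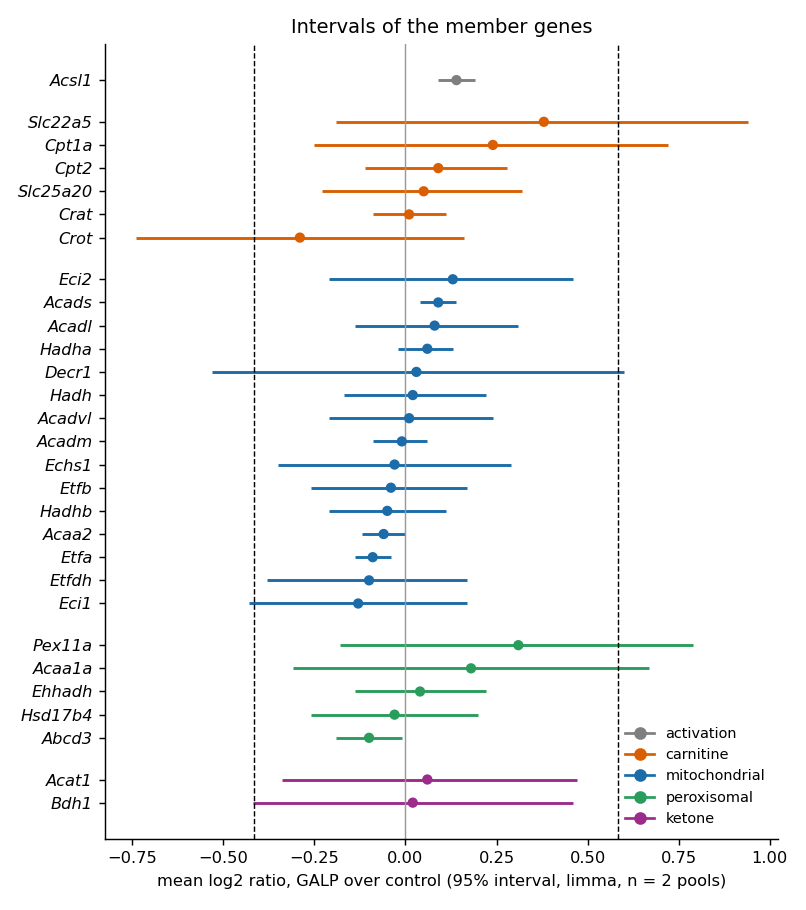
Mean log2 ratio of GALP over control (horizontal axis) for the 29 genes, with the 95% interval of limma over the 2 pools as a line, colours for the step and dashed lines at folds of 0.75 and 1.5. 21 intervals lie inside the dashed lines, and the intervals of Slc22a5 (-0.19 to 0.94) and Crot (-0.74 to 0.16) reach far beyond 1 of them.

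Few genes kept 1 direction across arrays, counted on the brightest probe of each. 4 of the 29 were above 0 on all 4 arrays, Cpt1a, Cpt2, Slc22a5 and Pex11a (13.8%, beside 12.8% of the 11319 genes with signal), and 3 were below 0 on all 4, Crot, Hadhb and Eci1 (10.3%, beside 14.6%). Both shares are near those of all genes. 4 of these 7 belong to the carnitine system, which holds 6 of the 29, and they do not share a direction. Cpt1a, Cpt2 and Slc22a5 were above 0 and Crot was below. In the other 22 genes at least 1 array differed in sign.

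The dye orientation moved single arrays about as much as the choice of pool, or more. The median size of the difference between the 2 arrays of the same extracts was 0.13 for greater and 0.18 for less weight loss, against 0.12 between the pools with GALP in Cy5 and 0.11 with GALP in Cy3. Between the pool means, which average 2 arrays each, it was 0.09. The 2 orientations had opposite signs for 11 genes in the first pool and 15 in the second. For 23 of the 29 genes the orientation differed in the same sense in both pools, with the greatest sizes at Acadm (0.31) in the first and Hadh (0.39) in the second.

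**Figure D3:**
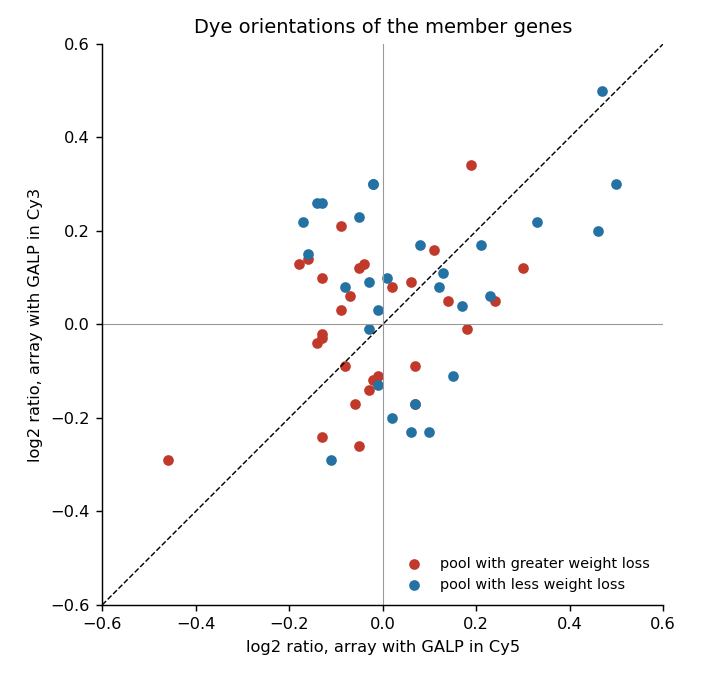
Log2 ratio of GALP over control on the array with GALP in Cy5 (horizontal axis) against that on the array with GALP in Cy3 (vertical axis), 1 point per gene and pool, red for greater and blue for less weight loss, with a dashed line of equal values. Points in the upper left and lower right parts have opposite signs in the 2 orientations, which was so for 11 genes with greater and 15 with less weight loss.

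The pools differed slightly but in 1 sense for most of the genes. The ratio was higher in the pool with less weight loss for 25 of the 29 (86.2%), where it was so for 47.3% of all genes with signal. It was higher in both dye orientations for 18 (62.1%), where it was so for 25.4%. The differences between pools, less minus greater weight loss, ran from -0.07 (Ehhadh) to 0.22 (Slc22a5 and Decr1), with a median of 0.087 against -0.010 over all genes with signal and -0.008 over those at least as bright. By step, this held for 6 of 6 carnitine genes, 12 of 15 mitochondrial, 4 of 5 peroxisomal, 2 of 2 ketone genes and Acsl1. If the control extract was the same on all arrays, as the methods describe, it drops out of this difference, which the labels leave unsettled. Each side is 1 pool of 4 mice, so the difference was not tested. This comparison was added after the values had been seen. Decr1 and Bdh1 were the 2 genes whose pools lay on opposite sides of 0 on all 4 arrays, which is 6.9% of the 29, near the 6.18% of all genes with signal, and the second probe of neither gene did so.

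**Figure D4:**
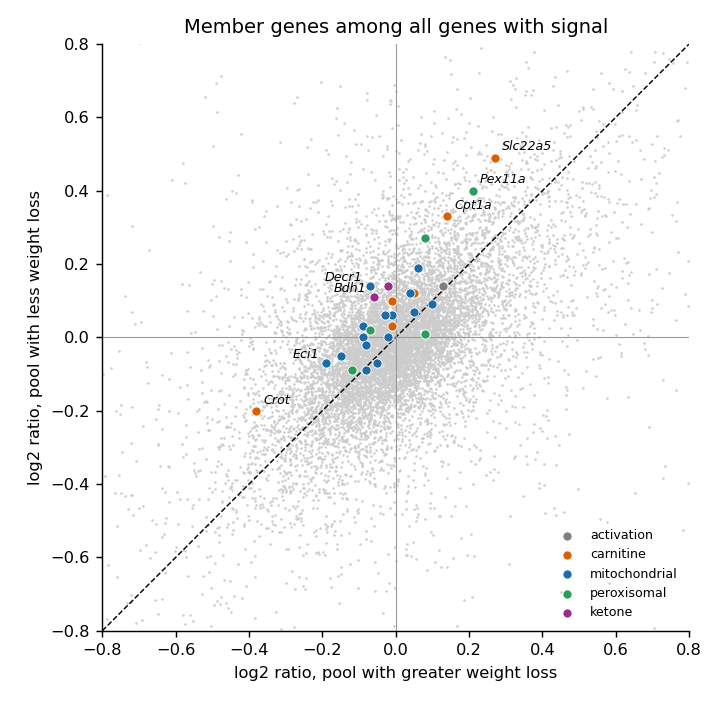
Log2 ratio of GALP over control in the pool with greater weight loss (horizontal axis) against that in the pool with less (vertical axis), with the 29 genes coloured by step over all genes with signal in grey and a dashed line of equal values. 25 of the 29 coloured points lie above the line, and 270 grey genes fall outside the axes at 0.8.

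Markers of other cell types also differed between the pools. Each list value is the log2 ratio of GALP over control of intensities summed over markers, so bright markers weigh most. The 5 skeletal muscle markers, all with signal, gave 0.49 and 0.23 on the arrays of greater weight loss and -2.37 and -2.29 on those of less. Their summed GALP channel intensities were 1678 to 2275 and 263 to 325, with control sums of 1363 to 1616. The adipose markers gave -0.69 and -0.55 against 0.24 and 0.21, but Ucp1, Plin1 and Lep were without signal. The other 2 ran opposite ways. In the pools of greater and less weight loss Cidea had -0.67 and 0.24 and Adipoq 0.38 and -0.26. 5 of 6 hepatocyte markers had a value, all with signal, and gave 0.08 and -0.03 against -0.15 and -0.21. Single hepatocyte markers ran from -0.19 (Tat) to 0.25 (Serpina1c) with greater weight loss and from -0.56 (Tat) to 0.11 (Alb) with less. The macrophage markers (3 of 4 with signal) gave 0.42, 0.25, 0.38 and 0.24. Clec4f had -0.12 and 0.11 in the pools of greater and less weight loss, Cd68 0.67 and 0.43 and Marco 1.05 and 0.69. The endothelial markers gave 0.03, -0.02, 0.12 and 0.00, and the bile duct markers -0.28, -0.40, -0.04 and -0.11. The stellate cell markers (2 of 3 with signal) gave 0.40, 0.55, 0.40 and 0.20, with Lrat at 0.01 and 0.13 and Col1a1 at 0.83 and 0.50. Pancreatic acinar enzymes, looked up after their values were seen, also differed. Cela3b had -4.10 in the first pool and 0.96 in the second, and Amy2a5 had -3.86 and 0.50, gaps wider than that of the muscle sum. The part of these other tissues in the difference between pools was not tested.

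Among 35 further genes of fatty acid oxidation and ketone metabolism from a list outside the 31, 31 had signal. None passed the threshold of the methods in either direction, and limma gave 0 at an adjusted p under 0.05. At an unadjusted p under 0.05 limma marked 6 of the 31, beside 11.6% of all probes, many of which had no signal. A fit on only the probes with signal marked 21.7% of those probes, and these 31 genes were not counted in it. 1 was above 0 on all 4 arrays and 5 were below, beside 12.8% and 14.6% of all genes with signal. The lowest were Slc16a1, the monocarboxylate transporter that exports ketone bodies and lactate, and Acsl3, an acyl-CoA synthetase of lipid droplets and endoplasmic reticulum. Slc16a1 gave -0.78, -0.32, -0.55 and -0.36, a mean of -0.50 ± 0.07, with a scanner p-value under 0.01 on 2 arrays. Acsl3 gave -0.60, -0.32, -0.52 and -0.51, a mean of -0.49 ± 0.04. Both were below 0 on every array and lower than any of the 29 genes.

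Acacb, the acetyl-CoA carboxylase whose product malonyl-CoA inhibits Cpt1a, came next at -0.25 ± 0.20, with arrays of -0.41, -0.39, 0.11 and -0.33, all but the third below 0. The highest were Acsl4 at 0.21 ± 0.14, a synthetase with a preference for arachidonic acid, Oxct1 at 0.20 ± 0.21, the enzyme by which other tissues use ketone bodies, and Abcd4 at 0.19 ± 0.24. The ratio was higher in the pool with less weight loss for 20 of the 31 and in both orientations for 10 of the 31. Both are larger shares than the 47.3% and 25.4% of all genes with signal, and neither was tested.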

How the data were processed

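Liver RNA was measured on 4 two-colour Agilent arrays of 43379 spots. In the deposited file headers, version 12.0.3.1 of Feature Extraction made the background-subtracted, dye-normalised intensity of each channel (the submitters' notes name 11.0.1.1), and the deposited log10 ratio is that of Cy5 over Cy3. The deposited p-value of each ratio comes from the scanner software's error model and compares the extracts of 1 array. The authors' series table holds log10 ratios and was used as an alternative. Between 40.5% and 46.7% of the spots of a channel were well above background. Precision is limited by having 2 GALP pools and, as the methods describe, 1 control pool.

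Each log10 ratio was rewritten as log2 of GALP over control. Outlier-marked spots (232 to 319 an array) were dropped, spots of a probe were averaged, and the brightest probe stood for a gene. The 2 arrays of a pool carry the same extracts and were averaged, so n = 2 pools. The control was taken as the same pool on every array. limma 3.58.1 in R 4.3.3 (lmFit, eBayes, Benjamini-Hochberg over 41037 probes) tested the pool ratios against 0 with 1 residual degree of freedom. The scripts were tested on simulated data. The alternatives tried were no outlier filter, normexp with an offset of 50 and loess, median centring, the series table, the mean of all probes, each dye orientation, each pool left out, other limma settings and, for the test, all 4 arrays with the pool as a random block. Probe coordinates are those of the files (mm9), and promoters are RefSeq sequences (GRCm38.p6). 26 of the 31 genes matched a promoter.

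The members and lists were chosen with earlier results of these data known. Values on every array were given for genes past the threshold, for means of at least 0.4 in size and for the highest and lowest mean of each step, and some others were added. From the further list, the 3 highest and 3 lowest were named.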

Additional observations from a re-analysis of the deposited data

Results flagged for a closer look

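Decr1 and Bdh1 lay below 0 on both arrays of the pool with greater weight loss and above 0 on both arrays of the pool with less. The difference, less minus greater weight loss, was 0.22 for Decr1 and 0.17 for Bdh1 on the log2 scale. It was not tested, since each side is 1 pool. 6.18% of all genes with signal had pools on opposite sides of 0 in this way, and the second probes did not, with pools of 0.07 and -0.04 for Decr1 and -0.12 and -0.03 for Bdh1 (greater, then less weight loss).

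The log2 ratios of the summed signals of 3 marker lists lay on opposite sides of 0 in the 2 pools, again with no test of the difference. Less minus greater weight loss was -2.69 for the skeletal muscle markers, 0.84 for the white or brown adipose markers, a sum that follows Cidea (-0.67 and 0.24) and not Adipoq (0.38 and -0.26), and 0.40 for the kidney markers, of which 1 of 5 had signal.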

How the results depend on the processing

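No member passed the threshold of the methods under the alternatives run for it, which left out normexp and loess. None reached an adjusted p under 0.05 under the alternatives run for limma. The limma test was not run with median centring, the mean of all probes, a single dye orientation or a pool left out. The smallest adjusted p of a member was 0.374 in the test reported and 0.0821 to 0.630 across the other settings. At an unadjusted p under 0.05, limma marked 15 members after normexp and loess (51.7%, beside 11.9% of all probes), 8 above 0 and 7 below, with values of -0.32 to 0.29. It marked 8 with the pool as a random block (27.6%, beside 12.9%), 6 of them above 0. Fitted only on probes with signal, it marked 4 (13.8%, beside 21.7% of those probes). These were Cpt1a, Crot, Pex11a and Slc22a5, with values of -0.29 to 0.38, and not the 4 of the test reported. At an adjusted p under 0.05, 95 probes passed after normexp and loess, 106 with the random block and 1 in the fit on probes with signal. The number of members above 0 on every array used was 7 with only the arrays with GALP in Cy5, 15 with only those in Cy3, and 7 to 11 leaving out a pool, against 4. The number below 0 was 5 with no outlier filter, 10 with Cy5 only, 8 with Cy3 only and 3 to 11 leaving out a pool, against 3. These settings use fewer arrays, so fewer signs have to match for any gene, or more genes. The share of all genes with signal is not given for them, so the counts are not read as a result about the members. The activation step, which rests on Acsl1, was -0.02 with no outlier filter (which adds Acsl5), 0.14 after normexp and loess, 0.11 as the mean of all probes, 0.05 with Cy5 only and 0.23 with Cy3 only. The median of the 29 genes stayed between -0.02 and 0.07. Cpt1a, Slc22a5 and Pex11a stayed above 0 and Crot and Eci1 below 0 in all 10 settings, while Hadhb turned to 0.03 after normexp and loess. The count of members higher in the pool with less weight loss was 23 to 25 under its alternatives, all chosen after seeing the data. The share of all genes is not given for those alternatives either. No paired analysis was possible because replicate numbers in the labels mark the dye orientation of the same extracts. The spread between control pools was not measured.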
